A study of Mus musculus with 30 samples.

Results

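Integrins are paired receptors of 1 α and 1 β chain that hold cells to matrix and to other cells, and the 10 genes described here encode such chains with roles in microglia. They are 7 α chains (Itgam, Itgae, Itgal, Itga4, Itga6, Itga9 and Itgav) and 3 β chains (Itgb1, Itgb2 and Itgb5), taken by their gene symbol from a count table of 51752 genes. The rule uses symbols and no measured value, but the 10 genes were chosen with earlier results of these data known. Counts and medians over them are therefore not those of an unselected set. The list includes Itgam, which encodes CD11b, the surface protein used to isolate the cells. The study sequenced RNA from 15 mice, each giving a whole-forebrain library and a library of microglia isolated with CD11b magnetic beads from the opposite hemisphere. The genotype experiment held 4 mice labelled IL34 Het, which keep an intact copy of Il34, and 3 labelled IL34 KO. The antibody experiment held 4 wild-type mice given a control antibody (a-gp120, written anti-gp120 here) and 4 given a blocking antibody against IL34 (anti-IL34). Interleukin-34 binds the microglial receptor CSF1R, and the title of the series names excitatory neurons as its source. Males made up 2 of 4 mice in the Het and in the anti-gp120 arm, 1 of 3 in KO and 3 of 4 under anti-IL34. The age of the mice and the dose of the antibodies are not given in the sources used here.

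An α chain can join only certain β chains. β2 (Itgb2) is the leukocyte chain and joins αM (Itgam) and αL (Itgal) to bind ICAM proteins and, for αM, complement fragments; β1 (Itgb1) joins α4, α6, α9 and αv to bind VCAM-1, laminins, tenascin and fibronectin. αv (Itgav) also joins β5 (Itgb5), a receptor for vitronectin and MFG-E8, and αE (Itgae) joins β7 and is best known as CD103, a receptor for E-cadherin. αv integrins also free TGF-β from its latent complex, and TGF-β signalling is known to sustain the microglial gene programme.

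Levels below are CPM, counts per M counts of a library (M for mega), scaled by the TMM method within each tissue, and adjusted p-values are those of edgeR's quasi-likelihood test allowing for sex and adjusted over all genes tested by Benjamini and Hochberg's method. A gene is said to be called, or to have risen or fallen, at an adjusted p below 0.05. Where arms are said not to overlap, or to be apart, the share of all genes with such a gap is not given here. A gap alone therefore sets no gene apart. Library totals lay between 15.1 and 75.2 M counts. Il34, the deleted gene, was read at 21.4 ± 2.37 CPM (SD, n = 4) in Het forebrain and at 7.72 ± 0.991 CPM (SD, n = 3) in KO forebrain, with the highest KO library at 8.75 CPM and the lowest Het library at 19.2 CPM. In the isolates Il34 overlapped, at 4.89 to 9.82 CPM in Het and 5.15 to 6.67 CPM in KO (log2 fold change -0.27, adjusted edgeR p 0.493), so there it does not check the labels. The sum of 10 microglial marker genes (among them Csf1r, P2ry12 and Tmem119) ran from 108 to 500 CPM over all forebrain libraries and from 4267 to 19687 CPM over all isolates, so the isolates carried the markers their label names. That sum was lower where IL34 was lost or blocked. It ran from 11105 to 19687 CPM in Het isolates and from 4267 to 4888 CPM in KO isolates, and from 14133 to 18979 CPM with anti-gp120 and from 5929 to 9017 CPM with anti-IL34. In forebrain it ran from 242 to 277 CPM in Het, 108 to 125 CPM in KO, 394 to 500 CPM with anti-gp120 and 181 to 226 CPM with anti-IL34. In such bulk libraries fewer microglia and less RNA per cell cannot be told apart. Nothing in the labels says that the 2 experiments were run together, and each had its own control animals.

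Promoters of 6 of the 10 genes were found in the RefSeq-based table (GRCm38.p6), and the 250 bases before the start are shown for 4 of them. Itgb5 is shown because it had the lowest fold change of the 3 β chains in KO isolates, Itgav because it is the α partner of Itgb5 and was called in no comparison of arms, Itgb1 because it is the most shared β chain here, and Itgam because it carries the isolation marker. All 4 lie on the plus strand, and capitals mark GAGGAA, the core recognised by the myeloid factor PU.1, and GGGCGG, the GC box of SP1-type factors, with TTCCTC and CCGCCC as the same letters read on the other strand. In these windows no match of GAGGAA overlapped a match of GGGCGG.
Itgb5, chr16:33829415-33829664: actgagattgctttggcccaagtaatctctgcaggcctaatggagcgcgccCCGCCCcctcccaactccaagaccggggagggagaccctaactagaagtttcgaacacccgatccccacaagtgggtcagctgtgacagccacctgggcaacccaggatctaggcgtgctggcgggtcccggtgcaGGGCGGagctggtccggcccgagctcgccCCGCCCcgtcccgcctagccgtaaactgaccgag
Itgav, chr2:83724147-83724396: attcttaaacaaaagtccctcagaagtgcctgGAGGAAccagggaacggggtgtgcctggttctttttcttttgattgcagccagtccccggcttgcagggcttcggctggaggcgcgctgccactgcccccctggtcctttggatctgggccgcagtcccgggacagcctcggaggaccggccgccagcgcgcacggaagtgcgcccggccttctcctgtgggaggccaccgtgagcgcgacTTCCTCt
Itgb1, chr8:128685404-128685653: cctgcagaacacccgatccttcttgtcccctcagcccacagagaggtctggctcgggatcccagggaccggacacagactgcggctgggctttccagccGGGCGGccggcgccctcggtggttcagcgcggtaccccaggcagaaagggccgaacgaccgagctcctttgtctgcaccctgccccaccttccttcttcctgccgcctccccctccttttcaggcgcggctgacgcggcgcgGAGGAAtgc
Itgam, chr7:128062390-128062639: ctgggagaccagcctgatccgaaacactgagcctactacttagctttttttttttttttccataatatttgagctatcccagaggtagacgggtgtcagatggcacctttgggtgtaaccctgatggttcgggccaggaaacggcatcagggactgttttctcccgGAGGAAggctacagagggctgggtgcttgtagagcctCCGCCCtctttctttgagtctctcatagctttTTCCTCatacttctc
Itgb5 held 3 GC boxes, at 199, 63 and 34 bases before the start, and no GAGGAA. Itgav held GAGGAA 218 and 7 bases before the start and no GC box, Itgb1 held GAGGAA at 9 bases and a GC box at 151 bases, and Itgam held GAGGAA at 84 and 15 bases and a GC box at 47 bases. GAGGAA was present in 3 of the 6 windows and in 23.3% of 32851 promoter windows of the same length, and the GC box in 4 of 6 and in 32.7%. The window of Itga9, with neither, precedes a RefSeq start that lies 105002 bases inside the GENCODE span of the gene. These matches describe letters only.

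Itgam could not be read from these counts. It had 7 counts over all 30 libraries, 0 in every forebrain library and between 0 and 3 in the isolates, although its product was the handle by which the isolates were made. The gene, ENSMUSG00000030786, lies on chromosome 7 (chr7:128062640-128118491, plus strand, GRCm38, GENCODE M21; the positions of the other genes below are of the same build, annotation and strand) with 30 merged exons. A second protein-coding gene model of the same strand, Gm49368 (chr7:128062683-128128160), covers all of it but 43 bases, shares 3450 bases of its exons, and runs on towards Itgax, the αX chain. The deposited gene lengths were equal to the whole gene span, introns included, for 51183 of 51498 matched genes; which features were counted is not given in the sources used here. For comparison, of 376 protein-coding genes lying wholly inside a gene of the same strand, a class that Itgam misses by those 43 bases, 374 (99.5%) had under 10 counts over the 30 libraries. That share was 25.6% for the 626 genes lying inside a gene of the opposite strand only and 26.7% for the 11641 with no overlapping gene. The part of the overlap in Itgam's counts was not tested. Itgam passed the expression filter in no comparison and has no test here. Its level in the isolates is therefore not known from this table, and its low counts do not show that CD11b RNA was absent.

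**Figure D1:**
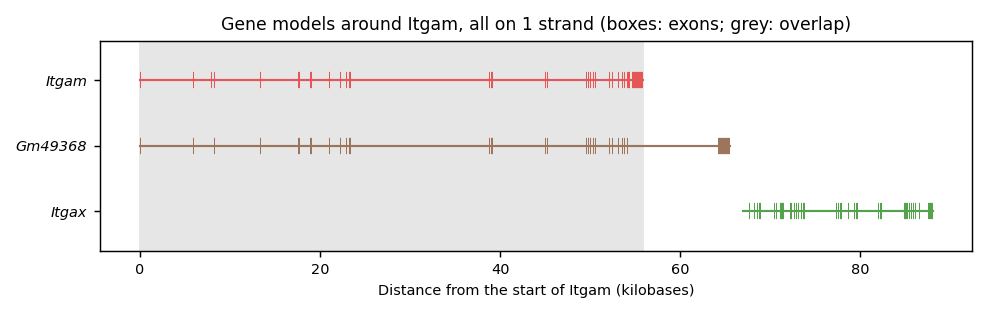
Gene models of Itgam, Gm49368 and Itgax, all on 1 strand, against distance from the start of Itgam in kilobases, with boxes for exons and thin lines for gene spans. The grey area is the stretch that Itgam and Gm49368 share, which leaves 43 bases of Itgam outside it.

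Gm49368 extends 9669 bases beyond Itgam and had 2100 counts over the 30 libraries. Its CPM in the Het isolates were 3.46, 6.96, 5.33 and 4.79 (animals 1, 20, 21 and 23) and in the KO isolates 2.20, 2.07 and 2.33 (animals 24, 3 and 6). All KO values lay below all Het values, and the fitted change was -1.25 on the log2 scale, with an SE of 0.25 (adjusted edgeR p 0.0395). With the antibodies the isolates overlapped, from 4.48 to 7.31 CPM with anti-gp120 and from 3.36 to 7.64 CPM with anti-IL34 (log2 fold change -0.19, adjusted edgeR p 0.633). Which of these reads come from Itgam cannot be told apart, so they are no measure of it.

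The other 9 genes were all higher in isolated microglia than in forebrain in the 8 control animals (4 Het and 4 anti-gp120). In CPM scaled within each tissue, each had its lowest isolate above its highest forebrain library. In this comparison 83.5% of 19952 genes tested were called, 40.5% higher and 43.0% lower, so a call alone sets no gene apart here. Itgb2 rose most, from 3.01 ± 1.02 to 188 ± 60.7 CPM (SD, n = 8), a log2 difference of 6.07 with an SE of 0.19 (adjusted edgeR p 8.64e-14). Itgb5 followed with 4.94 on the log2 scale, Itgae with 3.91, Itga6 with 3.80, Itgal with 3.76 and Itga9 with 3.21. The smallest differences were those of Itgb1 (2.23), Itga4 (1.24) and Itgav (0.59) on the log2 scale. Itgav ran from 128 to 159 CPM in forebrain and from 167 to 243 CPM in isolates. Because the tissues were scaled apart, so narrow a gap does not show that the tissues are apart on a shared scale. For comparison, 12 of 16 other integrin genes tested were higher in the isolates and 1, Itga11, was lower. All 9 calls held with each control animal left out and with the animal as a block. Markers of other cells were read there too. Endothelial and mural markers summed to 1107 to 1744 CPM in Het isolates and 385 to 404 CPM in Het forebrain. With anti-gp120 they summed to 1408 to 1866 and 368 to 407 CPM. In Het, astrocyte sums overlapped between tissues, as did oligodendrocyte sums. Neuronal sums were lower in Het isolates (108 to 403 against 5029 to 5507 CPM). The part of these cells was not tested.

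Set per kilobase of exon, the control isolates were led by Itgb5 at 192 ± 44.4 CPM per exonic kb (SD, n = 8) and Itgb1 at 138 ± 13.5. Their ranges over animals, 132 to 252 and 120 to 162, overlapped, while Itgb5 lay above Itgb1 in 8 of 8 isolates. Itga6, the laminin-binding α chain, stood at 64.9 ± 10.1 and Itgb2 at 61.4 ± 19.9, with Itga6 the higher in 6 of 8. By mean, Itga6 was above Itgb2 in Het isolates (61.7 and 50.1) and below it in anti-gp120 isolates (68.2 and 72.8). Itga9 (22.4 ± 2.43) was above Itgav (18.5 ± 2.43) in 7 of 8 isolates. The rarest were Itga4 at 4.54 ± 0.615, Itgal at 2.89 ± 1.23 and Itgae at 1.35 ± 0.231. Itga4 was above Itgal in 7 of 8 isolates and Itgal above Itgae in 8 of 8, although the ranges of these neighbours overlapped. The ranges were apart between Itgb1 and Itga6, between Itgb2 and Itga9 and between Itgav and Itga4. In forebrain the order was another: Itgb1 led at 31.2 ± 1.57 CPM per exonic kb, ahead of Itgav at 12.9, and Itgb5 stood at 6.70 ± 1.86. Itgb2 was the third lowest in forebrain at 0.985 ± 0.335 CPM per exonic kb. Lengths are those of merged GENCODE exons, and intron reads may enter these levels; with the deposited span lengths only 2 of the 9 genes held their rank.

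**Figure D2:**
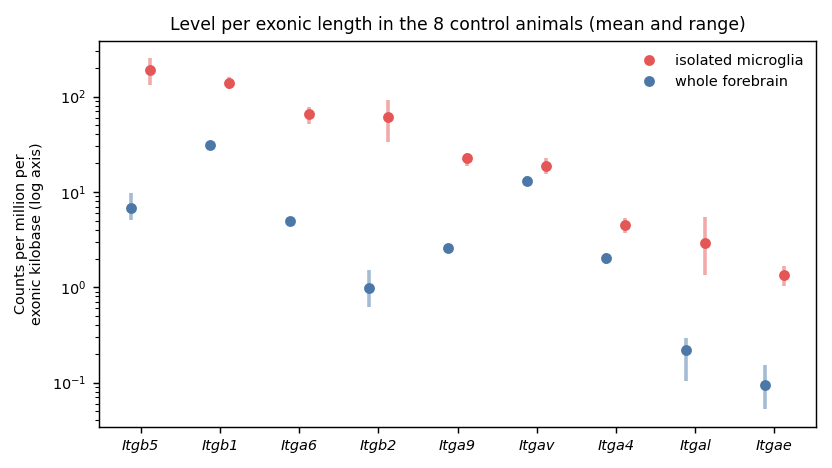
Level of 9 integrin genes in CPM per exonic kilobase (log axis) in the 8 control animals, with points for means and lines for the range over animals, in isolated microglia and in whole forebrain. Itgb5 and Itgb1 lead the isolates at 192 and 138, and Itgb1 and Itgav lead the forebrain at 31.2 and 12.9.

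In isolated microglia 5 of the 9 genes tested were lower in KO than in Het: Itgae, Itgb5, Itgb2, Itga9 and Itga6. No member rose. Of all 18185 genes tested 5.37% were called, 5.22% lower and 0.143% higher. The median log2 fold change was -1.01 over the 9 genes and 0.02 over all genes tested. The 4 chains that were not called were Itgb1, Itgav, Itga4 and Itgal.

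Itgae (ENSMUSG00000005947, chr11:73090583-73147446), the αE chain, had the lowest fold change. The Het isolates read 4.79, 5.44, 7.01 and 5.01 CPM (animals 1, 20, 21 and 23) and the KO isolates 1.08, 1.08 and 1.13 CPM (animals 24, 3 and 6). The KO values lay close together and far below the lowest Het value. On the log2 scale the change was -2.31 (SE 0.22, adjusted edgeR p 0.0136), a level of 20.1% of Het. This rests on 24 to 205 counts per isolate. αE is known from T cells and some dendritic cells. The T-cell gene Cd3e was at or below 0.135 CPM in every Het and KO isolate, and 7 T and NK cell markers summed to 0.316 to 0.505 CPM in Het and 0.141 to 0.900 CPM in KO. Its β partner Itgb7, singled out after its values were seen, ran from 3.10 to 4.04 CPM in Het and from 3.70 to 5.44 CPM in KO isolates and was not called (log2 fold change 0.40, SE 0.20, adjusted edgeR p 0.200).

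Itgb5 (ENSMUSG00000022817, chr16:33829665-33949338) fell while its partner Itgav (ENSMUSG00000027087, chr2:83724397-83806916) was not called. Itgb5 read 468, 516, 784 and 579 CPM in the Het isolates and 220, 220 and 246 CPM in the KO isolates. The arms did not overlap, with Het animal 21 the highest, and the log2 fold change was -1.33 (SE 0.21, adjusted edgeR p 0.0218). Itgav read 170, 167, 205 and 193 CPM in Het and 196, 165 and 165 CPM in KO. One KO value lay inside the Het range and the others just below it (log2 fold change -0.06, SE 0.14, adjusted edgeR p 0.768). Itgb3, another β partner of αv and the one called gene among 15 other integrin genes tested, ran from 39.7 to 59.7 CPM in Het and fell to between 18.6 and 20.4 CPM in KO (log2 fold change -1.21, SE 0.16, adjusted edgeR p 0.0152). Itgb8, the β chain of αvβ8 and also singled out after the fact, read 47.5 to 118 CPM in Het and 136 to 193 CPM in KO, a log2 difference of 0.98 that was not called (SE 0.32, adjusted edgeR p 0.113).

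Among the leukocyte chains, Itgb2 (ENSMUSG00000000290, chr10:77530252-77565708) fell and Itgal (ENSMUSG00000030830, chr7:127296260-127335138) was not called. Itgb2 read 103, 136, 203 and 170 CPM in Het and 75.0, 54.5 and 63.7 CPM in KO isolates. Its Het values spread widely but all stayed above the KO values (log2 fold change -1.27, SE 0.25, adjusted edgeR p 0.0361). Itgal read 8.88, 20.0, 16.3 and 17.7 CPM in Het and 19.1, 12.5 and 20.9 CPM in KO, ranges that overlap for the most part (log2 fold change 0.05, SE 0.21, adjusted edgeR p 0.876). Itgal is also a chain of lymphocytes, monocytes and neutrophils, and 8 neutrophil and monocyte markers summed to 36.3 to 51.3 CPM in Het and 32.6 to 85.0 CPM in KO isolates.

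Of the chains that pair with β1, Itga6 (ENSMUSG00000027111, chr2:71745616-71858416) and Itga9 (ENSMUSG00000039115, chr9:118606690-118901003) fell. Neither Itga4 (ENSMUSG00000027009, chr2:79255426-79333123) nor the β1 gene, Itgb1 (ENSMUSG00000025809, chr8:128685654-128733200), was called. Itga6 read 464, 530, 705 and 526 CPM in Het and 261, 264 and 292 CPM in KO, with no overlap (log2 fold change -1.01, SE 0.19, adjusted edgeR p 0.0310). Itga9, a receptor chain for tenascin and VCAM-1, read 161, 154, 197 and 168 CPM in Het and 58.4, 93.1 and 83.4 CPM in KO, again apart (log2 fold change -1.08, SE 0.17, adjusted edgeR p 0.0212). Itga4 went the other way in its point estimate, from 51.6, 74.5, 64.8 and 57.9 CPM in Het to 57.2, 81.9 and 76.8 CPM in KO. Those ranges overlap (log2 fold change 0.22, SE 0.19, adjusted edgeR p 0.435). Itgb1 itself read 488, 555, 660 and 530 CPM in Het and 431, 558 and 515 CPM in KO. These overlapped too (log2 fold change -0.13, SE 0.18, adjusted edgeR p 0.628).

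**Figure D3:**
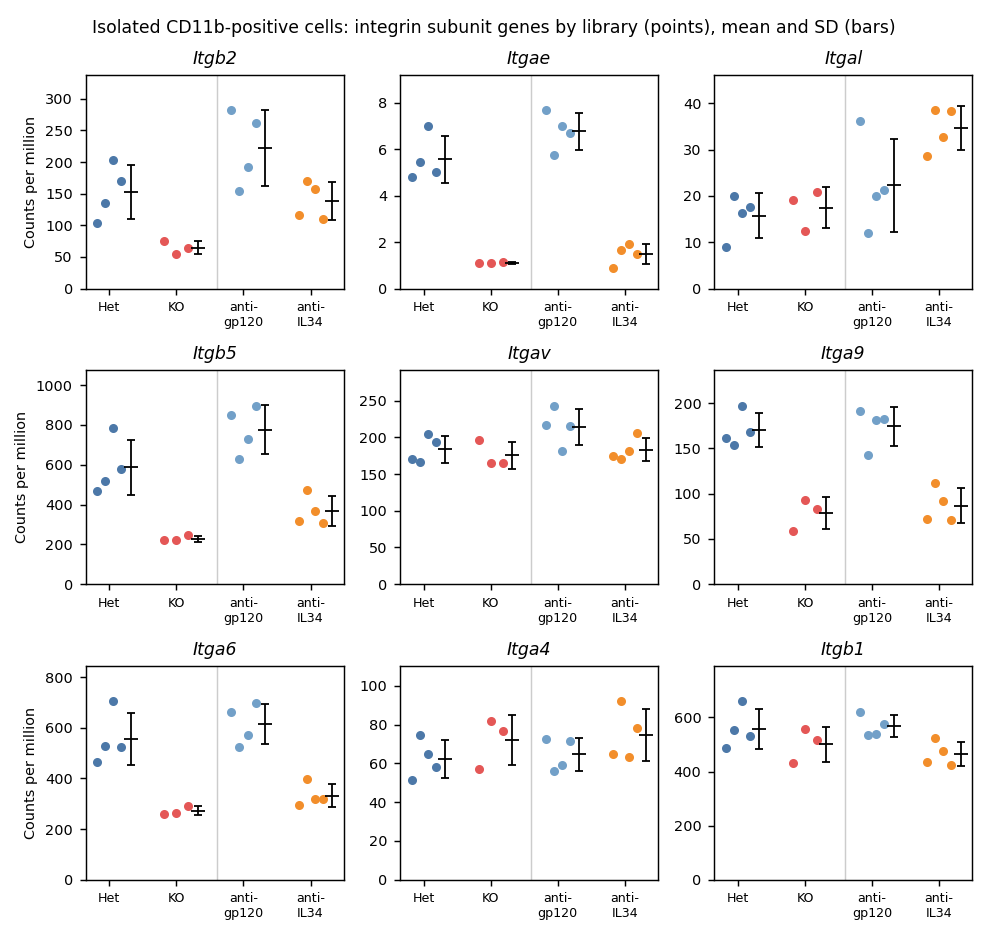
CPM of 9 integrin genes in each isolated-microglia library (points; within each arm from left to right, animals 1, 20, 21, 23 in Het, 24, 3, 6 in KO, 1, 15, 7, 8 with anti-gp120 and 10, 11, 2, 24 with anti-IL34), with mean and SD as bars. Itgae, Itgb5, Itga6, Itga9 and Itgb2 in KO lie below every Het library, while Itgb1, Itgav, Itga4 and Itgal overlap.

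The 5 calls changed with single animals. Without Het animal 1 or 21 all 5 stayed called, where 31.5% and 17.2% of all genes were called. Without Het animal 20 or 23, or without any one of KO animals 24, 3 and 6, edgeR called none of the 9 genes and 0 genes of the whole table, while all 5 genes stayed under an unadjusted p of 0.05. With all animals 32.6% of all genes tested were under that unadjusted p. DESeq2 was not run on these reduced sets; on all animals it called 5 of the 9 genes and 21.4% of all genes. The log2 fold changes over these omissions ran from -2.36 to -2.21 for Itgae, -1.40 to -1.20 for Itgb5, -1.37 to -1.08 for Itgb2, -1.22 to -0.94 for Itga9 and -1.07 to -0.91 for Itga6.

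Other markers moved between the same isolates. All 10 microglial markers fell in KO, their median log2 fold change being -1.55. Neuronal markers summed to 108 to 403 CPM in Het and 364 to 603 CPM in KO isolates, astrocyte markers to 1109 to 3246 and 3895 to 4212 CPM, and oligodendrocyte markers to 2647 to 8821 and 6702 to 15828 CPM. Their median log2 fold changes were 0.91 over 6 genes, 0.97 over 5 and 0.86 over 5, and no gene of these lists was called. Each neuronal, astrocyte and oligodendrocyte marker had counts in at least 1 isolate of every arm. Border macrophage markers summed to 738 to 915 CPM in Het and 392 to 817 CPM in KO. Choroid plexus markers summed to 1605 to 3826 CPM in Het and 1120 to 3009 CPM in KO. The part of these cells in the values of the integrin genes was not tested.

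With the blocking antibody 1 of 9 genes was called in the isolates, Itgae, which again had the lowest fold change. Of 17570 genes tested 0.626% were called, 0.603% lower and 0.0228% higher. The median log2 fold change was -0.64 over the 9 genes and 0.06 over all genes tested. Itgae read 7.67, 5.74, 6.97 and 6.68 CPM with anti-gp120 (animals 1, 15, 7 and 8) and 0.898, 1.68, 1.90 and 1.50 CPM with anti-IL34 (animals 10, 11, 2 and 24). All treated values were below all control values (log2 fold change -2.17, SE 0.26, adjusted edgeR p 0.0327), and Cd3e was at or below 0.116 CPM in these isolates. The 7 T and NK cell markers summed to 0.185 to 0.589 CPM with anti-gp120 and 0.300 to 0.718 CPM with anti-IL34.

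Itgb5, Itga6 and Itga9 separated the arms without being called, and the share of all genes that did so is not given here. Itgb5 read 852, 628, 727 and 896 CPM with anti-gp120 and 318, 472, 369 and 306 CPM with anti-IL34, without overlap (log2 fold change -1.02, SE 0.18, adjusted edgeR p 0.0554). Itga6 read 663, 526, 571 and 700 CPM against 294, 398, 318 and 317 CPM, also without overlap (-0.83, SE 0.15, adjusted edgeR p 0.0557). Itga9 read 191, 143, 181 and 182 CPM against 71.6, 112, 92.0 and 71.3 CPM, again apart (-0.96, SE 0.18, adjusted edgeR p 0.0563). These 3 genes and Itgae were called by DESeq2 (11.5% of all genes), without the expression filter (2.75%), without the sex terms (5.59%) and in a fit over all 15 isolates (5.27%).

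Itgb2 did not separate the antibody arms. It read 282, 154, 192 and 261 CPM with anti-gp120 and 117, 170, 157 and 110 CPM with anti-IL34, where treated animals 11 and 2 lay above control animal 15 (log2 fold change -0.64, SE 0.24, adjusted edgeR p 0.165). Itgal read 36.1, 11.9, 19.9 and 21.2 CPM with anti-gp120 and 28.7, 38.5, 32.8 and 38.4 CPM with anti-IL34. Control animal 1 lay among the treated animals, and the log2 difference of 0.64 was not called (SE 0.29, adjusted edgeR p 0.205). The neutrophil and monocyte markers summed to 43.2 to 283 CPM with anti-gp120 and 134 to 435 CPM with anti-IL34, and their part in the Itgal values was not tested.

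The remaining chains were closer between arms. Itgb1 read 622, 534, 540 and 577 CPM with anti-gp120 and 435, 525, 475 and 426 CPM with anti-IL34. Every treated value lay below every control value, and the log2 difference of -0.25 was not called (SE 0.13, adjusted edgeR p 0.233). Itga4 ran from 56.1 to 72.6 CPM with anti-gp120 and from 63.4 to 92.0 CPM with anti-IL34 (log2 fold change 0.26, adjusted edgeR p 0.277). Itgav ran from 182 to 243 CPM and from 171 to 206 CPM (-0.18, adjusted edgeR p 0.361). The arms overlapped for both genes. Other markers were read in the same isolates: neuronal markers summed to 191 to 580 CPM with anti-gp120 and 420 to 728 CPM with anti-IL34, astrocyte markers to 1572 to 5040 and 3003 to 5368 CPM, and oligodendrocyte markers to 3511 to 8749 and 5300 to 11453 CPM, all with overlapping arms and 0 genes called. The median sums of these lists were higher with anti-IL34, at 698 against 311, 4297 against 2301 and 10754 against 4653 CPM. That of the microglial markers was lower, at 6808 against 15874 CPM. Border macrophage markers did not overlap, at 527 to 980 CPM with anti-gp120 and 364 to 520 CPM with anti-IL34, the median log2 fold change of the 6 genes being -0.49 (0 called). Choroid plexus markers summed to 3.76 to 6.55 CPM with anti-gp120 and 3.32 to 2082 CPM with anti-IL34. Their part in the integrin values was not tested. Omitting single animals moved the count of called genes. It was 0 without control animal 1, 7 or 8 or treated animal 10, 2 or 24, with 4 to 6 genes at an unadjusted p under 0.05 (25.9% of all genes with all animals). It was 4 without treated animal 11, where 3.02% of all genes were called, and 5 without control animal 15, where 40.4% were.

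**Figure D4:**
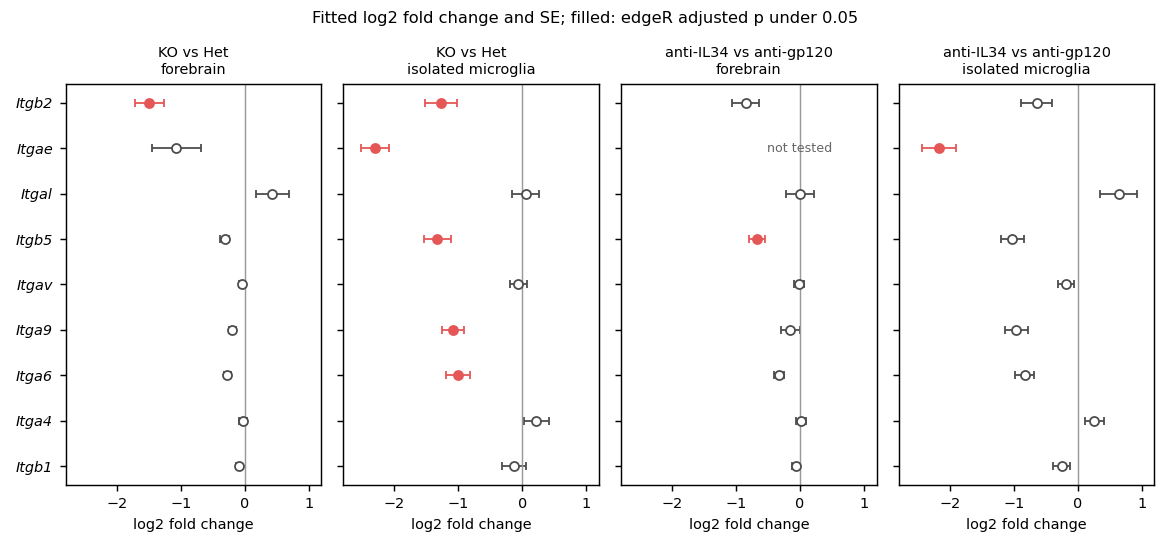
Fitted log2 fold change (points) and SE (bars) of 9 integrin genes in the 4 comparisons of arms, with filled points for an adjusted edgeR p below 0.05. The same 5 genes, Itgae, Itgb5, Itga6, Itga9 and Itgb2, lie furthest below 0 in both isolate panels; Itgae did not pass the expression filter in the antibody forebrain.

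In whole forebrain the deletion lowered 1 of 9 genes tested, Itgb2, where 0.620% of 19343 genes were called, 0.615% lower and 0.00517% higher. The median log2 fold change was -0.19 over the 9 genes and close to 0 (-0.00) over all genes. Itgb2 read 2.07, 2.66, 1.87 and 2.18 CPM in Het and 0.615, 1.07 and 0.664 CPM in KO. The arms stood apart, on 13 to 144 counts per library, and the log2 ratio was -1.49 (SE 0.23, adjusted edgeR p 0.00844). Itgb5 read 19.7, 17.9, 17.9 and 18.9 CPM in Het and 14.05, 14.8 and 15.7 CPM in KO, and Itga6 42.0, 46.3, 44.3 and 40.1 CPM and 33.3, 35.4 and 38.3 CPM. Neither gene overlapped between arms, and neither was called by edgeR (log2 fold changes -0.31 and -0.27, adjusted edgeR p 0.0777 and 0.127). DESeq2 called both beside Itgb2 (0.920% of all genes called), as did edgeR without the expression filter (1.24%). Without KO animal 6 edgeR called none of the 9 genes (Itgb2 at an adjusted edgeR p of 0.0954). There 6 of 9 were at an unadjusted edgeR p under 0.05, a share of 7.45% over all genes with all animals. Without Het animal 23 edgeR called 2, Itgb2 and Itga6 (0.614% of all genes called).

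The other chains were not called in forebrain. Itgae was at low counts, from 0.414 to 0.691 CPM in Het and 0.0946 to 0.337 CPM in KO on 2 to 31 counts per library. The arms did not overlap, and the log2 fold change of -1.07 was not called (SE 0.38, adjusted edgeR p 0.499). Itga9 read 18.8 to 20.5 CPM in Het and 16.5 to 17.8 CPM in KO, also without overlap (log2 fold change -0.19, adjusted edgeR p 0.402). Itgal ran from 0.691 to 1.92 CPM in Het and from 1.75 to 2.25 CPM in KO (0.43, adjusted edgeR p 0.757). For the remaining chains the estimates lay near 0, at -0.09 for Itgb1, -0.03 for Itga4 and -0.04 for Itgav, with SEs of 0.04 to 0.06. In the same libraries 8 of 10 microglial markers fell, at a median of -1.35 on the log2 scale. Of 5 oligodendrocyte markers 3 fell (among them Mbp and Mog, named after their values were seen), the median being -0.37, and 6 border macrophage markers summed to a median of 18.4 CPM in Het (lowest 15.4) and 13.2 CPM in KO (lowest 12.1), overlapping, with a median log2 fold change of -0.38 (0 called); their part in the integrin values was not tested.

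**Figure D5:**
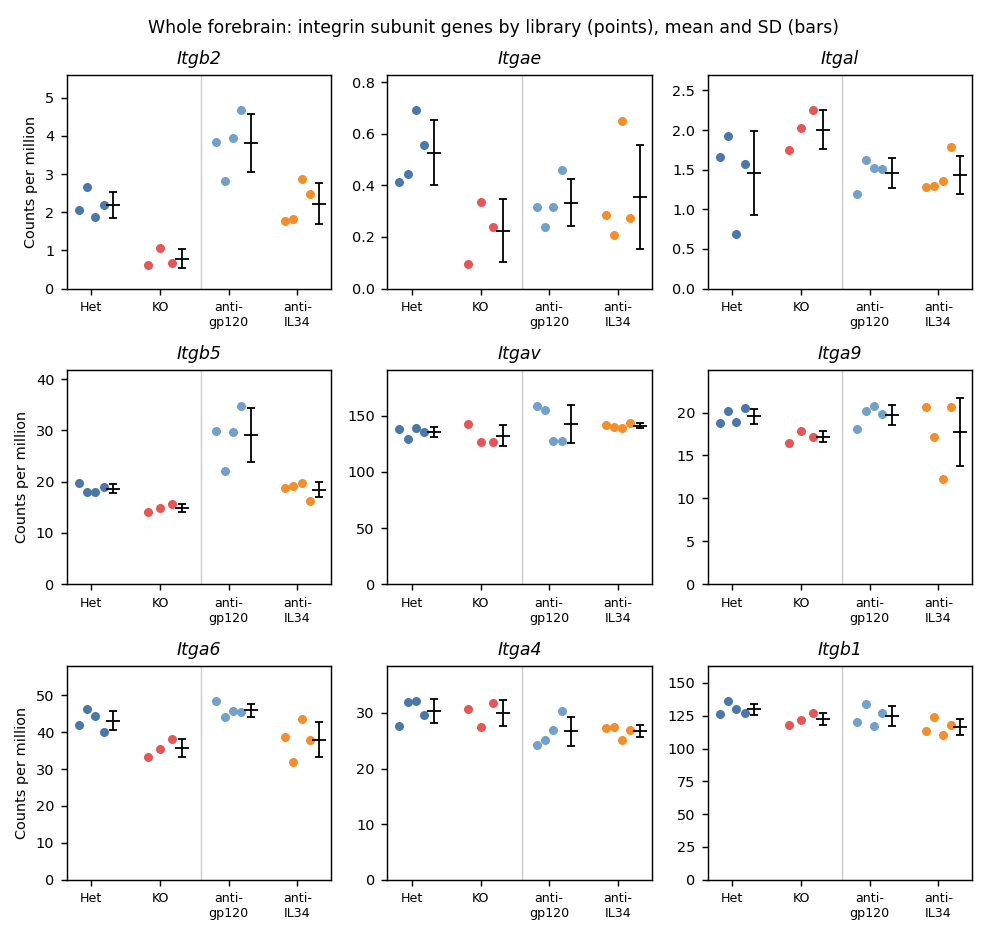
CPM of 9 integrin genes in each whole-forebrain library (points, in the same order of animals as for the isolates), with mean and SD as bars. Itgb2 in KO lies at 0.615 to 1.07 CPM, below the Het range of 1.87 to 2.66 CPM, and Itgb5 with anti-IL34 lies at 16.2 to 19.7 CPM, below 22.0 to 34.8 CPM with anti-gp120.

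With the antibody the forebrain gave 1 called gene of 8 tested, Itgb5, where 0.717% of 17143 genes were called, 0.525% lower and 0.192% higher. Itgb5 read 29.8, 22.0, 29.7 and 34.8 CPM with anti-gp120 and 18.8, 19.1, 19.7 and 16.2 CPM with anti-IL34, with no overlap (log2 fold change -0.67, SE 0.13, adjusted edgeR p 0.0408). Itgb2 read 3.84, 2.83, 3.94 and 4.67 CPM against 1.76, 1.81, 2.86 and 2.48 CPM. Treated animal 2 lay just above control animal 15, and the log2 fold change of -0.85 was not called (SE 0.21, adjusted edgeR p 0.158). Itga6 read 48.4, 44.2, 45.7 and 45.4 CPM against 38.7, 31.9, 43.5 and 38.0 CPM, apart but not called (-0.33, SE 0.08, adjusted edgeR p 0.120). Itga9, Itgal, Itga4, Itgav and Itgb1 had log2 fold changes between -0.15 and 0.02 with overlapping arms. The median was -0.11 over the 8 genes and 0.00 over all genes. In these libraries 9 of 10 microglial markers fell (median -1.35 on the log2 scale), and border macrophage markers summed to 16.8 to 26.9 CPM with anti-gp120 and 7.79 to 17.2 CPM with anti-IL34 (median -0.56 over 5 genes tested, 0 called); their part in the Itgb5 value was not tested. DESeq2, and edgeR without the expression filter, called Itgb2 and Itga6 beside Itgb5 (1.15% of all genes in each). EdgeR called none of the genes when control animal 1, 7 or 8 or treated animal 10, 11 or 24 was omitted. Each time 3 were at an unadjusted edgeR p under 0.05, a share of 4.86% over all genes with all animals. Without treated animal 2 edgeR called Itga6 (adjusted edgeR p 0.0487) and not Itgb5 (0.0677), with 0.655% of all genes called. The Itgb5 call thus held in 1 of 8 omissions, that of control animal 15 (0.724% of all genes called).

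The fall under deletion was larger in the isolates than in the forebrain for 2 of 9 genes by the test of that difference, where 2.98% of 20107 genes were called, 2.43% lower and 0.552% higher, and the median over all genes was 0.12. Itgb5 differed between tissues by a log2 value of -0.99 (SE 0.22, adjusted edgeR p 0.0423) and Itga9 by -0.85 (SE 0.19, adjusted edgeR p 0.0418). With the animal as a block neither was called (adjusted edgeR p 0.116 and 0.101), with 0 of 9 genes called and 4 at an unadjusted p under 0.05, a share of 31.0% over all genes without the block. Without Het animal 20 or 23 or any one KO animal none was called either (2 to 4 at an unadjusted p under 0.05), without Het animal 1 or 21 there were 3 (28.5% and 16.3% of all genes called), and DESeq2 on all animals called 4, Itgae and Itga6 besides (18.1% of all genes). For Itgb2 the difference was 0.24 (SE 0.37, adjusted edgeR p 0.686). For the antibody none of 9 genes differed between tissues by edgeR. There 3 of 9 were at an unadjusted edgeR p under 0.05, against 21.1% of all genes. DESeq2 called 2, Itga6 and Itga9, and 5.94% of all genes. EdgeR called 0.0924% of 18399 genes, 0.0870% lower and 0.00544% higher. Itgae had a difference of -2.19 (SE 0.48, adjusted edgeR p 0.0859), on forebrain counts so low (4 to 24 per library) that Itgae failed the expression filter there. Without anti-gp120 animal 15 the count was 3, where 29.9% of all genes were called. Between the deletion and the antibody edgeR called 0 of 9 genes in forebrain and 0 of 9 in isolates, as did DESeq2. EdgeR called 0.0101% of 19724 genes in forebrain and 0 of 18732 in isolates. In forebrain 1 of 9 was at an unadjusted edgeR p under 0.05, against 3.07% of all genes, and in isolates 0, against 3.95%. For Itgb2 in isolates the deletion minus the antibody effect was -0.61 with an SE of 0.36, and for Itgae -0.12 with an SE of 0.32, so differences of that size between the experiments are not resolved.

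Genes of integrin ligands and of integrin signalling were counted in the same comparisons. Of 25 ligand genes tested, 3 fell in KO isolates, where 5.37% of all genes were called: F11r (JAM-A, a ligand of αLβ2) by 1.34 on the log2 scale (adjusted edgeR p 0.0146), Tgfb1 by 1.23 (adjusted edgeR p 0.0423) and Nrros, which tethers latent TGF-β for αv integrins, by 0.94 (adjusted edgeR p 0.0373). The list's median was 0.29. Of 29 genes of integrin activation and signalling 10 fell and none rose in KO isolates, the list's median being -0.55. Among them were Parvg (-1.71), the parvin of blood cells, Tyrobp (-1.26), the adaptor DAP12, and Vav1 (-1.46), a guanine exchange factor. In KO forebrain, with 0.620% of all genes called, 7 of 29 fell, led by Vav1 (-1.31, adjusted edgeR p 0.00101) and Apbb1ip, which links RAP1 to talin (-0.78, adjusted edgeR p 0.00336), while none of 25 ligands and none of 16 other integrins was called. In anti-IL34 forebrain, with 0.717% of all genes called, 6 of 28 signalling genes fell, led by Apbb1ip (-0.88, adjusted edgeR p 0.00373) and Parvg (-1.18, adjusted edgeR p 0.0166), and of 25 ligands F11r fell (-0.76, adjusted edgeR p 0.0396). In anti-IL34 isolates, with 0.626% of all genes called, 1 of 29, Parvg, was called (-1.23, adjusted edgeR p 0.0432), and no ligand of 25 and no other integrin of 15; Fn1, the most abundant ligand gene there, had a log2 fold change of 0.13 and Itga1, the most abundant other integrin, 0.20.

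Correlations between the chains were taken across the 15 isolates after the mean of each experiment was removed, so they carry the difference between arms by which the fallen chains are known. Itga6 and Itgb5 had a Pearson r of 0.99 (0.96 once the mean of each arm was removed as well), Itgb2 and Itgb5 0.94 (0.88), Itga9 and Itgb5 0.96 (0.73) and Itgae and Itgb5 0.96 (0.63). Among the fallen chains Itga9 with Itgb2 gave 0.85, and 0.47 within arms. Itgb1, which was not called, reached 0.82 (0.86) with Itga9, 0.79 (0.79) with Itga6 and 0.78 (0.79) with Itgb5. Itgav with Itgb5 gave 0.45, and 0.04 within arms. Itgal with Itgb2 gave -0.00, and 0.71 within arms. These coefficients describe 15 libraries that share arm, depth and purity, and carry no test. Among 18732 genes the 3 most like Itgae were Herc2, Adgrg1 and P2ry13 (r 0.99 each; 0.88, 0.78 and 0.75 within arms), and those most like Itgb2 were Ptafr, Tnfrsf1b and Slc15a4 (0.99 each; 0.96 to 0.97 within arms). Those most like Itga6 were Edem2, Tspan14 and Pld1 (0.99 each; 0.94 to 0.97 within arms), and Itgb5 shared Edem2 and Tspan14 with it, beside Gm38317 (1.00 each; 0.97 to 0.98 within arms). Itga9 was nearest to Styxl2 (0.99), Rreb1 and Pmepa1 (0.98 each; 0.87 to 0.94 within arms). The chains that were not called had other neighbours: Itgal was nearest to Sirpb1c, Napsa and F10 (0.91 to 0.92), Itga4 to Dnajc10, Rai14 and Anxa2 (0.85 to 0.86), Itgav to Sgpp1, Sec63 and Serinc1 (0.89 to 0.91) and Itgb1 to Uba2, Serpinf1 and Fndc3b (0.92 to 0.95).

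Some of these genes share their span with genes of the opposite strand, and Itga6 also with models of its own strand. The library kit does not mark strand, so reads of the overlap cannot be told apart. For Itga9, 51.0% of exon bases lie outside the span of any other gene. The processed pseudogene Gm10157 lies inside it with 15038 counts over the 30 libraries, and the antisense gene Gm2415 covers 10929 bases of its span. The exons of each share 0 bases with those of Itga9. In Het forebrain Gm2415 ran from 17.7 to 20.0 CPM, and Itga9 itself from 18.8 to 20.5 CPM. In Het isolates Gm2415 ran from 2.88 to 6.52 CPM and Itga9 from 154 to 197 CPM. The corresponding share was 81.5% for Itga4, which overlaps Cerkl, and 65.6% for Itgav, which overlaps Gm13684. Itgae holds Haspin in an intron. Itga6 holds 4 non-coding models in its introns, of which the 3 in the count table had 0 counts. Gm13663 (2694 bases) and Gm13662 (9877 bases) lie on the strand of Itga6, and Gm17250 and Gm13739 on the opposite strand. Their part in the counts of Itga6 was not tested. Itgal, Itgb1, Itgb2 and Itgb5 overlap no annotated gene.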

How the data were processed

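RNA of 15 whole-forebrain and 15 CD11b-isolated microglia libraries was made with TRIzol and the SMART-Seq v4 kit, per the labels' protocols. The submitters' processing notes name STAR 2.7.5c, featureCounts 1.6.3, R 4.4.0 and GRCm38; the annotation and strand setting are not given in the sources used here. The authors deposited whole-number counts per gene, not normalised, with a Length per gene, another kind of value; it was used only as an alternative to exon lengths. The deposited table holds 6 columns of counts with no labelled sample, which were not used. Groups come from the labels, and separate animals are the replicates.

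These were tested in R 4.3.3 with edgeR 4.0.16 (quasi-likelihood F test, TMM, its default expression filter, sex as a covariate, adjusted p under 0.05), fitted on the whole table after a check on simulated data. Each comparison of arms used the libraries of 1 tissue and 1 experiment; for the tissue contrast the 8 control animals entered, with sex and experiment as covariates; differences of effects were interaction terms. SE is the fold change on the log2 scale over the root of F. Alternatives were RLE scaling, no filter, DESeq2 1.42.0, no sex terms, all 15 libraries of a tissue, the animal as a block and each animal left out. The 2 libraries of an animal are paired by origin; their deviations from group means correlated at a median of 0.110 (0.0412 to 0.171, above 0.1 in 9 of 15 animals).

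Of the 10 genes, 9 passed the filter in each comparison except in the antibody forebrain, where 8 did; Itgam never passed. A count of 0 allows up to 3 counts, which is 0.0399 to 0.199 CPM in forebrain and 0.0594 to 0.190 CPM in isolates, for counting error only. The 10 genes, the lists of other integrins, ligands, signalling genes and cell markers, and the motifs were chosen with earlier results of these data known. All 10 genes are named; of a list, up to 4 called genes with the lowest p, or the most abundant where none was called; and for each gene the 3 with the highest Pearson r over the isolates. Some genes of the lists are not reported here.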

Additional observations from a re-analysis of the deposited data

Results flagged for a closer look

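A single isolate held all Itgam counts of its arm: Het animal 20 read 0.168 CPM, from 3 counts, while the other Het isolates were at 0. In forebrain Itgal of anti-IL34 animal 24 stood at 1.79 CPM, away from the other treated animals at 1.28 to 1.36 CPM. For 4 animals a gap is marked above 0.829 of the group's range, which chance gives in about 1 in 20 groups of continuous values, and 56 groups were examined. That rate does not apply to Itgam, where the other 3 values are 0. The fall under deletion differed between tissues for Itgb5 (-0.99 on the log2 scale) and Itga9 (-0.85), by edgeR's interaction test. Neither difference was called with the animal as a block. Itga9's forebrain level stands near that of the antisense gene Gm2415, whose exons share 0 bases with those of Itga9. Any mixing of their reads was not tested.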

How the results depend on the processing

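The contrast of isolates with forebrain kept 9 of 9 calls under all alternatives run, and the isolate calls under deletion kept 5 outside the omissions of single animals. With single animals left out the number of called genes ran from 0 to 2 (deletion, forebrain), 0 to 5 (deletion, isolates), 0 to 1 (antibody, forebrain), 0 to 5 (antibody, isolates), 0 to 3 (tissue difference of the deletion effect) and 0 to 3 (tissue difference of the antibody effect). DESeq2 called 3, 3, 4, 4 and 2 genes for deletion in forebrain, antibody in forebrain, antibody in isolates and the tissue differences of deletion and of antibody. In that order it called 0.920%, 1.15%, 11.5%, 18.1% and 5.94% of all genes. Without the expression filter 3, 3, 4 and 2 genes were called for deletion in forebrain, antibody in forebrain, antibody in isolates and the tissue difference of the antibody. The shares over all genes were 1.24%, 1.15%, 2.75% and 4.15%. Without sex terms 4 genes were called for the antibody in isolates, 1 for its tissue difference and 3 for that of the deletion effect, and the fit over 15 libraries called 4 for the antibody in isolates. With the animal as a replicate block, which pairs the tissues, the contrast of isolates with forebrain called 9, the tissue difference of the deletion effect 0 and that of the antibody effect 0. Over all genes the deletion in isolates called 976 genes here, 3887 by DESeq2, 2189 without sex terms, 2734 over 15 libraries and 1993 without the filter, and the antibody in isolates 110, 2015, 983, 988 and 819. The tissue difference of the deletion effect called 599 genes here, 3635 by DESeq2 (18.1%), 2400 without sex terms and 1569 without the filter, and that of the antibody 17, 1092 (5.94%), 222 and 1352, and 48 with RLE scaling. In forebrain the deletion called 120 genes (178 by DESeq2, 0.920%) and 381 without the filter, and the antibody 123 and 349, 198 by DESeq2 and 204 over 15 libraries. The cause of these shifts was not tested. With the deposited gene length 2 of 9 genes kept their rank of level, since that length includes introns.

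The values that changed sign belonged to no called gene and comparison. Itgb1's tissue difference of the deletion effect was -0.01 and became 0.02 without the expression filter; with animals left out it ran from -0.09 to 0.06. Over the same omissions the deletion gave -0.07 to 0.03 for Itga4 and -0.09 to 0.02 for Itgav in forebrain, and -0.04 to 0.20 for Itgal and -0.02 to 0.37 for Itga4 in isolates. The antibody gave -0.03 to 0.06 for Itga4 and -0.10 to 0.06 for Itgav in forebrain. Itgb2's tissue difference ran from -0.03 to 0.75 (deletion) and from -0.09 to 0.46 (antibody). Omitting KO animal 3 or anti-IL34 animal 11 also removes 1 sex from that arm. Itgae in forebrain had 2 to 31 counts per library. Why Itgam has so few counts was not tested.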
